A study of Mus musculus with 3 samples.

Results

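The genes described here are the long intergenic noncoding RNA (lincRNA) genes with an appreciable level in the mouse hippocampus. They are the 132 genes, of 54532 in the deposited table, whose biotype is given as lincRNA, that lie outside chromosomes X and Y, and whose mean level over the 3 libraries was an FPKM of at least 2. FPKM is the number of fragments on a gene divided by its length in kilobases and by a measure of library size. The table holds 5559 lincRNA genes, of which 4915 lie outside chromosomes X and Y and 134 of these passed the mean level. The imprinted genes Meg3 and Mirg were left out by name. Rian, the other name on that exclusion, is listed under another biotype. The members were thus selected on their mean level, so their levels are given as a description with no test.

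RNA-seq libraries were made from hippocampi of mice aged 10 months, 1 library for each of 3 genotypes: WT, PS19 and PS19 with Zbp1+/-. PS19 mice carry a transgene for a disease-linked mutant of human tau, driven by the mouse Prnp promoter, and PS19 Zbp1+/- mice carry this transgene and have lost 1 of their alleles of Zbp1, a sensor of Z-form nucleic acids. All animals were on C57BL/6. The sources used here do not give the animals' sex or whether tissue was pooled, and with 1 library per genotype there is no replicate error and no p-value. Values for the libraries always follow the order WT, PS19, PS19 Zbp1+/- unless a library is named. The intervals given below are 95% exact intervals on the ratio of reads per library size, and they cover counting error only.

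LincRNA genes are transcribed by RNA polymerase II from their own promoters between protein-coding genes, and their transcripts have no long reading frame. Some act in the nucleus as RNA, as Malat1 does in nuclear speckles and Neat1 in paraspeckles. Others are mainly known as host transcripts from which microRNAs or small nucleolar RNAs are cut, and many are known only by a clone or model name.

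The sequences that follow show what the best known members make. The first set is the 3′ end of Malat1 and Neat1, the abundant members with the largest differences between the libraries. As background, Malat1 and the long form of Neat1 end without an ordinary poly(A) tail. RNase P cuts them, and 2 U-rich tracts fold onto an A-rich run as a triple helix that protects the end. In the transcripts of GENCODE M21 (GRCm38) this stretch lies at chr19:5795977-5796047 on the minus strand for Malat1, 287 bases before the annotated end of the gene, and at chr19:5824708-5824802 on the minus strand for Neat1, at its annotated end. Both are written 5′ to 3′ as DNA, and the capitals mark 2 T-rich runs found by their letters and the A-rich run. In Malat1 the first marked run stands directly before the ctcagg that precedes the second, whereas in Neat1 cctga follows the first. The first marked run of Malat1 is therefore not taken as the first tract of the helix, which may lie upstream of the printed stretch.
Malat1 3′ end: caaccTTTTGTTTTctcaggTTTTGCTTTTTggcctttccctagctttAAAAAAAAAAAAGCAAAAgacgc
Neat1 3′ end: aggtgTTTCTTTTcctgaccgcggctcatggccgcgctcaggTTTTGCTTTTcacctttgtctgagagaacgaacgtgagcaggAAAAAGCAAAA

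The second set is the microRNA whose 3 genes all lie in member genes. miR-9 is a neural microRNA. Its hairpins lie in Gm3764 (Mir9-1, chr3:88215598-88215686, plus strand), C130071C03Rik (Mir9-2, chr13:83738814-83738885, plus strand) and Mir9-3hg (Mir9-3, chr7:79505264-79505353, plus strand). The sequences are those of RefSeq on GRCm38.p6. In the hairpins the capitals mark the mature arms, and in the mature RNAs they mark the seed, bases 2 to 8.
Mir9-1 hairpin: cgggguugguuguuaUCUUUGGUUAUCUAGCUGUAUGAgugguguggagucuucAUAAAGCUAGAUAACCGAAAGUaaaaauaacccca
Mir9-2 hairpin: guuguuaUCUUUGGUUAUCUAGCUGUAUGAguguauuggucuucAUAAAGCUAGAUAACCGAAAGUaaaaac
Mir9-3 hairpin: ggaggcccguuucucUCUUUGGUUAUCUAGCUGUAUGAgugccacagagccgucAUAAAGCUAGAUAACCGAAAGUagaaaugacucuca
miR-9-5p: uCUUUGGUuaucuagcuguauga
miR-9-3p: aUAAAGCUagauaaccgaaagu

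The hairpins differ in loop and stem but give the same mature arms, so the 3 host genes share a product. The third set is 1 arm of each of 5 well-known microRNAs held by other member genes described below, from the same RefSeq table. They are miR-138-5p (in C78859, chr8:94324312-94324334, plus strand), miR-101a-3p (in E130102H24Rik, chr4:101346957-101346977, minus strand), miR-191-5p and miR-425-5p (in 4833445I07Rik, chr9:108568325-108568347 and chr9:108568789-108568811, plus strand) and let-7d-5p (in 6720427I07Rik, chr13:48536078-48536099, minus strand). The capitals mark the seed again, and no 2 of these 5 share it.
miR-138-5p: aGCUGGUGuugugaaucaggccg
miR-101a-3p: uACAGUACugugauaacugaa
miR-191-5p: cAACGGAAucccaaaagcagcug
miR-425-5p: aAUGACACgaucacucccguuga
let-7d-5p: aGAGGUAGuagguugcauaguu

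The members' own levels were low to moderate. Their median mean FPKM was 3.82, against 8.73 for the 10359 protein-coding genes that passed the same mean level. In 82 members the mean was under 5, and in 15 it was at least 10. Their median gene length was 1654 bases against 4462 for those protein-coding genes, with a range from 138 to 20771 bases. GENCODE M21 gives 32 of them a single exon, and the median was 2.5 exons. The GC content of their transcripts had a median of 48.1%.

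Not every member was above the mean level in each library. An FPKM of at least 2 was found in every library for 94 members, 28 were under 2 in 1 library, and 10 were under 2 in 2 libraries. Just inside the limit were Gm42047 (mean FPKM 2.0037), Lsmem2 (2.0073) and 6720427I07Rik (2.03). Just outside were AC154378.1 (1.98), Snhg10 (1.97) and Gm34418 (1.95). Every member had a read in each library, 55 had at least 100 reads in each, and 5 had under 50 reads over the 3 libraries together.

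**Figure D1:**
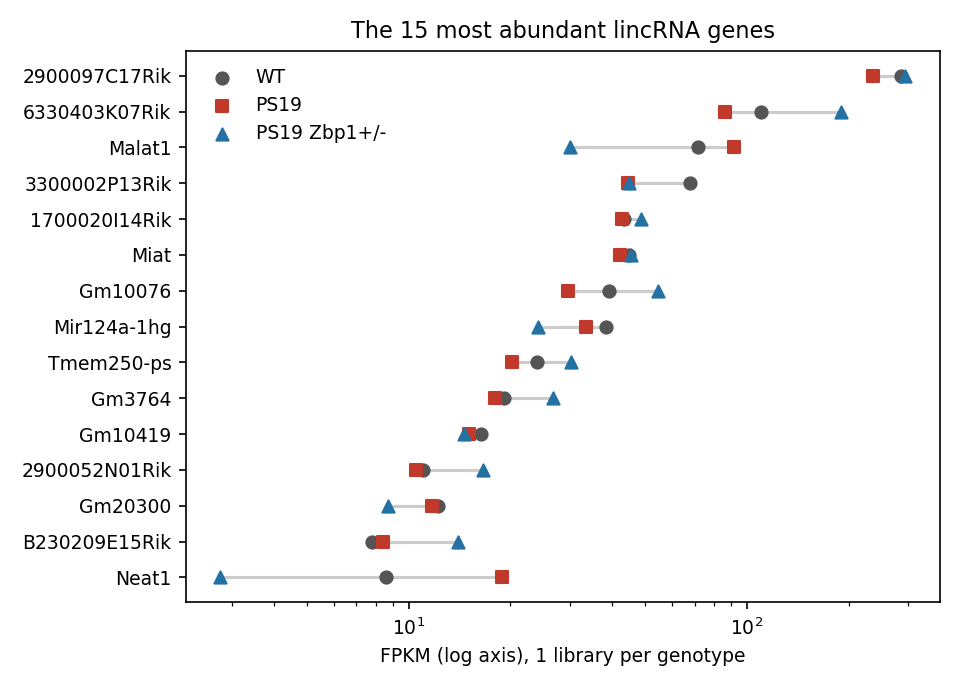
FPKM (log axis) of the 15 lincRNA genes with the highest mean, with 1 point per library (WT circles, PS19 squares, PS19 Zbp1+/- triangles) and a grey line over their range. 2900097C17Rik leads at 237 to 294, and Malat1 (30 to 91.3) and Neat1 (2.78 to 18.8) span the widest ranges.

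The most abundant member stood far above the rest. 2900097C17Rik, a gene with 1 exon on chromosome 2 (chr2:156388065-156392979, minus strand), had an FPKM of 285, 237 and 294. It took 24173 of the 81493 member reads, then 20103 of 80416 and 22895 of 70023. Its PS19 value was the lowest, at 0.83 of WT (0.815 to 0.846), and the other libraries lay within 1.03 of each other. A stretch covering 51.6% of it is 99.2% identical to Gm7292 on chromosome 6, which had 44, 49 and 53 reads, so its reads are uncertain to that extent.

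Some well-known brain lincRNAs sat at nearly the same level in all libraries. Miat, also called Gomafu, a nuclear RNA of neurons, had an FPKM of 45, 42.1 and 45.4. 1700020I14Rik, the Cyrano RNA, known for a site that drives the decay of miR-7, had 43.3, 42.8 and 48.8. Neither gene differed between any of the libraries by more than a ratio of 1.14.

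The 3 libraries were alike in depth and unlike in some cell type markers. Reads on genes summed to 16746085, 16400328 and 17109734, and members took 0.487%, 0.49% and 0.409% of them. The library sizes implied by the FPKM values, which the ratios use, were 1.725e+07, 1.729e+07 and 1.583e+07. The PS19 Zbp1+/- library thus had the largest sum and the smallest implied size. Zbp1 itself had 5, 91 and 0 reads, and with so few in WT these do not settle the Zbp1+/- label. Xist had 11062, 13350 and 0 reads and 4 Y-linked genes together had 0, 0 and 1887, so the libraries differed in sex. Summed over 10 choroid plexus markers, FPKM was 3430, 2185 and 25.7 with Slc4a5 at 0 in the last. The 8 microglia markers summed to 160, 550 and 169, the 7 astrocyte markers to 551, 1402 and 677, the 10 oligodendrocyte markers to 922, 1649 and 599, and the 11 neuron markers to 913, 814 and 1144. No marker of the last 4 lists was at 0 in any library. In bulk tissue, fewer cells of a type and less RNA per cell cannot be told apart, and the part of sex and of these markers in the differences below was not tested.

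Differences are given on log2(FPKM + 1), and a gene was called higher or lower at 1 log2 unit (2-fold of FPKM + 1). Between PS19 and WT, 4 of the 132 members were called higher and 2 lower. Over all 11336 genes outside chromosomes X and Y that passed the same mean level, 2% were higher and 0.626% lower. The members' median difference was -0.09, against -0.05 over all those genes, and 46 members (34.8%) lay above 0, as did 42.9% of all those genes. Between PS19 Zbp1+/- and PS19, 8 were higher and 10 lower, with 2.77% and 4.4% over all genes. Their median was 0.00 against 0.07. Between PS19 Zbp1+/- and WT, 6 were higher and 5 lower, with 1.88% and 2.4% over all genes. There the median was -0.13 against 0.02, and 78 members (59.1%) lay below 0, as did 48% of all genes.

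The spread of the members was wider than that of all genes: the median absolute difference was 0.25, 0.38 and 0.44 in the 3 comparisons, against 0.20, 0.29 and 0.25. Other noncoding genes and pseudogenes of the same mean level (845 genes) had still larger shares called, from 4.73% lower between PS19 and WT to 12.4% higher between PS19 Zbp1+/- and WT. Members with at least 50 reads over the 2 libraries compared gave 3 higher and 0 lower of 120, then 4 higher and 10 lower of 121, then 4 higher and 5 lower of 120. The 10 lower calls between PS19 Zbp1+/- and PS19 all rested on at least 50 reads. The comparisons share libraries and are not independent of each other. At 1.5-fold, 8 members were higher and 13 lower between PS19 and WT, with 5.39% and 3.49% over all genes, then 22 and 17 (11% and 9.65%), then 19 and 25 (8.06% and 7.08%). At 4-fold the counts were 0 and 0 (0.468% and 0.106%), then 2 and 3 (0.318% and 1.13%), then 0 and 1 (0.309% and 0.706%). These thresholds too are on FPKM + 1, which shrinks differences at low FPKM. The read ratio of a low member, as given below for some, can therefore exceed 4-fold without being counted here.

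The balance of higher and lower calls depended on the scaling, and for members it moved under TPM mainly through the number of lower calls. With each library rescaled to the same sum (TPM), members gave 7 higher and 19 lower between PS19 Zbp1+/- and PS19, where they gave 8 and 10 before, and 6 higher and 16 lower between PS19 Zbp1+/- and WT, where they gave 6 and 5. The share of higher calls between PS19 Zbp1+/- and PS19 thus moved from 44.4% to 26.9% for members and from 38.6% to 17.1% for all genes. Scaling by total reads gave 37.5% and 22.7%. Between PS19 Zbp1+/- and WT it moved from 54.5% to 27.3% under TPM and 38.5% under total reads for members, and from 43.9% to 27.5% and 27.6% for all genes. Between PS19 and WT the all-gene median went from -0.05 to 0.07 under TPM. In the former comparison above the all-gene median went from 0.07 to -0.19 under TPM and -0.09 under total reads, and in the latter from 0.02 to -0.13 and -0.12. Relative to that median, the members' median lay at -0.04 to -0.17 in the 3 comparisons under all of these scalings.

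**Figure D2:**
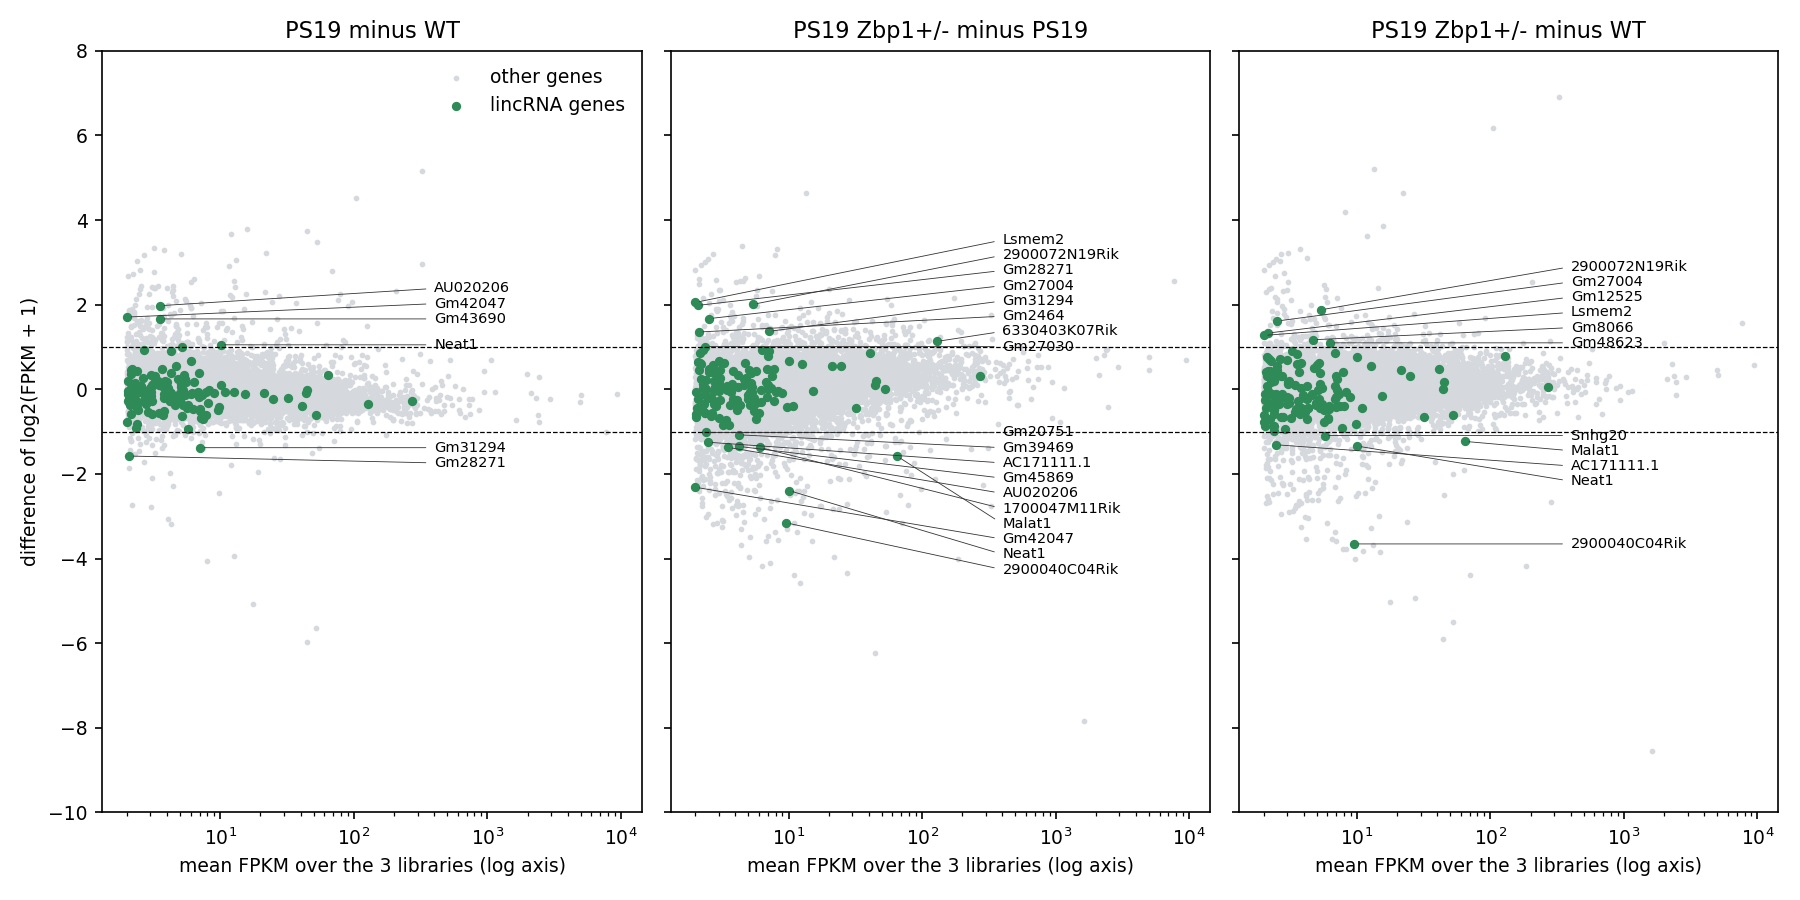
Difference of log2(FPKM + 1) against mean FPKM (log axis) in the 3 comparisons, for the 132 lincRNA genes (green) and the other genes outside chromosomes X and Y (grey), with dashed lines at 1 log2 unit either way. Every called lincRNA gene is named; Malat1, Neat1 and 2900040C04Rik lie below -1 in both comparisons with the PS19 Zbp1+/- library.

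The nuclear RNAs Neat1 and Malat1 held the largest summed read counts among the called members. They lie on chromosome 19 (Neat1 at chr19:5824708-5845478 and Malat1 at chr19:5795690-5802672, both minus strand), 22036 bases apart, and their 3′ ends are printed above. Neat1, whose long form is the RNA scaffold of paraspeckles, had an FPKM of 8.58, 18.8 and 2.78, from 3074, 6765 and 913 reads. These reads were counted over the whole gene and do not tell its forms apart. PS19 was the highest library and PS19 Zbp1+/- the lowest, each at least 1 log2 unit from both others. The difference was 1.05 between PS19 and WT, at 2.2 times the reads (2.1 to 2.29), and -2.39 between PS19 Zbp1+/- and PS19, at a ratio of 0.147 (0.137 to 0.158). Against WT, PS19 Zbp1+/- stood at 0.324 (0.3 to 0.349).

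Malat1, which is retained in nuclear speckles, ordered the libraries in the same way with a smaller gap between PS19 and WT. Its FPKM was 71.9, 91.3 and 30, from 8663, 11026 and 3320 reads. The PS19 to WT ratio was 1.27 (1.23 to 1.31), a difference of 0.34 that was not called. The PS19 Zbp1+/- library differed from PS19 by -1.57, at a ratio of 0.329 (0.316 to 0.342), and from WT by -1.23, at 0.418 (0.401 to 0.435). Together these RNAs made up 14.4%, 22.1% and 6.05% of the member reads. Gm37376, on the opposite strand, shares 6.49% of the bases of Malat1.

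Of 20 genes that encode paraspeckle proteins (among them Nono, Sfpq and Pspc1), all passed the mean level and the RNA of none was called in any comparison, with median differences of -0.09, -0.10 and -0.23 in the order above. Of 19 genes of the nuclear RNA exosome and its adaptors, which degrade nuclear RNA, none was called either, with medians of -0.04, -0.07 and -0.16. At the shares of all genes called, given above, lists of this size would hold few calls, so these counts are near the background. The 6 listed RNAs with no poly(A) tail (Rn7sk, Rpph1, Rmrp, Terc, Rn7s1 and Rn7s2) were near absent, with summed FPKM of 1.93, 2.16 and 2.38. None of these 6 reached the mean level.

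Frmd8, the nearest protein-coding gene to Neat1 at 4224 bases, had 434, 879 and 308 reads. Slc25a45, beyond it, had 70, 137 and 36 reads, and Ltbp3, on the other side of Malat1, had 992, 1318 and 670. Each of these 3 was highest in PS19, as Neat1 and Malat1 were, but they are not all the genes of the region and give no count over it.

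AU020206, a spliced gene on chromosome 7 (chr7:75769038-75782099, minus strand), had the largest difference between PS19 and WT of all members. Its FPKM was 1.11, 7.29 and 2.2, from 61, 402 and 111 reads. PS19 stood 6.58 times above WT (5.01 to 8.76), a difference of 1.98, and PS19 Zbp1+/- was at 0.302 of PS19 (0.242 to 0.373). PS19 was thus at least 1 log2 unit above both other libraries. Its nearest protein-coding gene, Akap13 at 14429 bases, had 1167, 1770 and 1967 reads, with its highest value in another library.

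Gm42047 (chr8:121833247-121841178, plus strand) was the other member at least 1 log2 unit higher in PS19 than in both other libraries, along with Neat1 and AU020206. Its FPKM was 0.831, 4.98 and 0.201, from 81, 486 and 18 reads. The ratio was 5.99 between PS19 and WT (4.72 to 7.67) and 0.0405 between PS19 Zbp1+/- and PS19 (0.0238 to 0.0646). Several lincRNA genes on other chromosomes match from 50.9% to 64.2% of it at 98.4% identity or more, so that its reads are uncertain. Those copies had at most 2 reads in any library. Over all genes, 1.38% stood apart above in PS19, and 3 of 132 members did.

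In all, 8 members had PS19 above WT and fell short of PS19 by 1 log2 unit or more in the PS19 Zbp1+/- library, as did 3.56% of all genes. Besides Neat1, Malat1, AU020206 and Gm42047 these were 1700047M11Rik, Gm45869, Gm39469 and Gm20751. Gm45869, Gm39469 and Gm20751 were named after their values were seen, to complete the count. 1700047M11Rik (chromosome 1) had an FPKM of 5.64, 9.53 and 3.06 from 277, 469 and 138 reads, with a ratio of 1.69 between PS19 and WT (1.45 to 1.97) and 0.321 between PS19 Zbp1+/- and PS19 (0.264 to 0.389). Gm45869 (chromosome 6) had 3.4, 7.23 and 2.22 from 100, 213 and 60 reads, and its ratios were 2.13 (1.67 to 2.72) and 0.308 (0.227 to 0.412). Gm39469 had 35, 48 and 17 reads and Gm20751 had 52, 78 and 25. Gm39469 has near-identical stretches in other genes, so its reads are uncertain. These are Zfp932 (457, 422 and 215 reads), Gm45871 (85, 109 and 39) and 4930522L14Rik (19, 21 and 18).

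The microglia, astrocyte and oligodendrocyte marker sums given above were also highest in PS19. Between PS19 and WT, 6 of 8 microglia markers, 2 of 7 astrocyte markers and 1 of 10 oligodendrocyte markers were called higher. Between PS19 Zbp1+/- and PS19, 5, 2 and 10 of them were called lower. The 7 thalamus and striatum markers summed to an FPKM of 41.9, 61.9 and 23, with none at 0, and 3 passed the mean level. Of these 3, 2 were called higher between PS19 and WT and 2 lower between PS19 Zbp1+/- and PS19: Prkcd, with 780, 2211 and 148 reads, and Rora, with 544, 1491 and 425. Tcf7l2, under the mean level, had 149, 582 and 64. Prkcd, Rora and Tcf7l2 thus ordered the libraries as Neat1 and Malat1 did, while Ppp1r1b (1319, 1277 and 704 reads), Drd1 and Drd2 had WT highest and Adora2a had PS19 Zbp1+/- highest. Whether these cells, or tissue from beside the hippocampus, account for the 8 members was not tested.

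Promoters of 3 of these members follow, from RefSeq on GRCm38.p6: 250 bases before to 50 after the annotated start. They lie at chr7:75782071-75782370 (AU020206, minus strand), chr19:5802623-5802922 (Malat1, minus strand) and chr1:182300584-182300883 (1700047M11Rik, plus strand). The RefSeq start of 1700047M11Rik lies within the span the table gives it. The capitals mark matches, on either strand, to the GC box (GGGCGG), the TATA box (TATAAA), the PU.1 site (GAGGAAGT) or the E-box (CAGCTG); none of these motifs overlapped another in the 3 promoters.
AU020206 promoter: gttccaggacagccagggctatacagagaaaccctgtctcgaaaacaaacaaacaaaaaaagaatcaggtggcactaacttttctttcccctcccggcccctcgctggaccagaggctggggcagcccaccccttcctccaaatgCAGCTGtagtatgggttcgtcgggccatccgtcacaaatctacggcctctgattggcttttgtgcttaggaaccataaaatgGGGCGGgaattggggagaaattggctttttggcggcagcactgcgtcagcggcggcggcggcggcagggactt
Malat1 promoter: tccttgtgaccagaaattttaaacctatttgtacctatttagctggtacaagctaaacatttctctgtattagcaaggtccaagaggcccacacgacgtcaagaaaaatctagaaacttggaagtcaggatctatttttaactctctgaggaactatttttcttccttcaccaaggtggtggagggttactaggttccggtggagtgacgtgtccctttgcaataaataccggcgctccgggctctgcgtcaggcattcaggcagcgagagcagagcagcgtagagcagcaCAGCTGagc
1700047M11Rik promoter: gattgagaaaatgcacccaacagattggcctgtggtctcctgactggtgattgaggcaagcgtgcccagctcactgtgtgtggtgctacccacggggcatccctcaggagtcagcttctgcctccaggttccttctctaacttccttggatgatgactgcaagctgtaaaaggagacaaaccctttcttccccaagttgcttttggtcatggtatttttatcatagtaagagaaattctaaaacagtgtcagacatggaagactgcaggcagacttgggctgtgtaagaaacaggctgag

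AU020206 and Malat1 each held the E-box letters, AU020206 also held a GC box, and 1700047M11Rik held none of the 4 motifs. The table has 62 promoters of 56 members. The E-box letters were in 17.7% of these and in 16.3% of all 32851 promoters. The GC box was in 38.7% and 35.7%, the TATA box in 11.3% and 13.6%, and the PU.1 site in 4.84% and 3.2%.

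**Figure D3:**
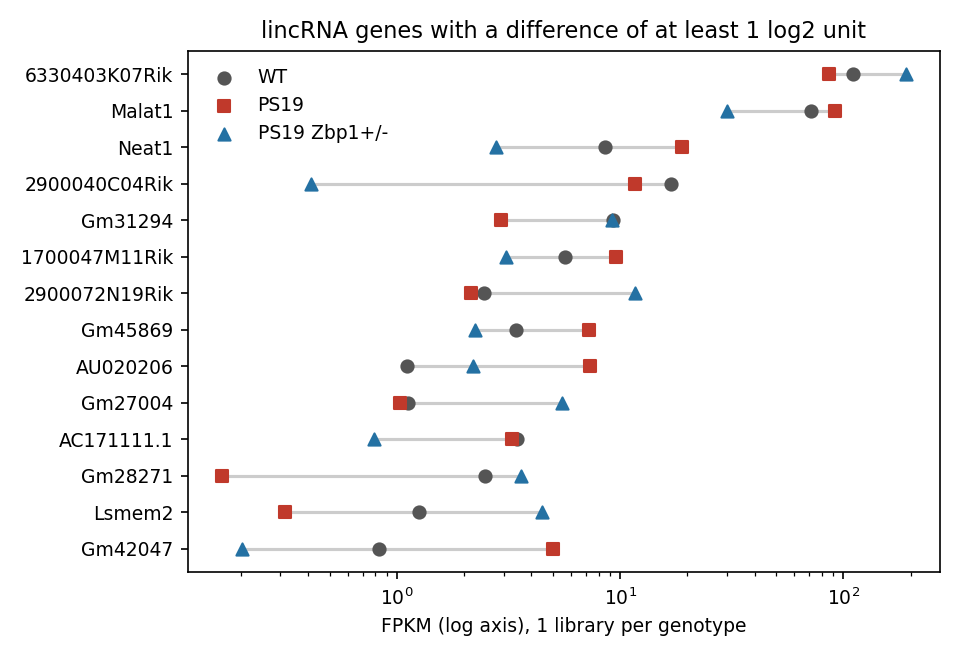
FPKM (log axis) of 14 lincRNA genes with a difference of at least 1 log2 unit in at least 1 comparison, 1 point per library. Neat1, AU020206 and Gm42047 have PS19 far to the right of both other libraries, and 2900040C04Rik has PS19 Zbp1+/- at 0.413 against 11.6 and 16.8.

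2900040C04Rik had the largest difference of any member. This short spliced gene (chr14:76251457-76252327, plus strand) had an FPKM of 16.8, 11.6 and 0.413, from 133, 92 and 3 reads. The ratio of PS19 Zbp1+/- was 0.0356 to PS19 (0.00721 to 0.107) and 0.0246 to WT (0.00501 to 0.0734). PS19 and WT differed far less, at 0.69 (0.523 to 0.907). Its nearest protein-coding gene, Nufip1 at 114078 bases, had 255, 201 and 289 reads. The choroid plexus markers were low in the same library, where 10 of 10 were called lower against PS19 and against WT, with Ttr at 63846, 38820 and 136 reads. Ependyma and blood markers were low there too. The 4 ependyma markers summed to an FPKM of 25.1, 22.4 and 5.75, with 2 called lower against PS19 and 3 against WT. The 5 blood markers summed to 19, 15.8 and 3.44, and both that passed the mean level were called lower in both comparisons. No ependyma or blood marker was at 0. Whether the amount of choroid plexus, ependyma or blood accounts for 2900040C04Rik was not tested.

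AC171111.1 (chromosome 17) was also lowest in PS19 Zbp1+/- by more than 1 log2 unit against both other libraries. It had 176, 167 and 37 reads, an FPKM of 3.44, 3.26 and 0.788, and a ratio of 0.242 to PS19 (0.165 to 0.347). Its nearest protein-coding gene, Smoc2 at 1751 bases, had 530, 468 and 356 reads. With Neat1, Malat1 and 2900040C04Rik it made 4 of 132 members apart below in PS19 Zbp1+/-, against 1.74% of all genes.

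Above both other libraries in PS19 Zbp1+/- stood 3 members, against 1.03% of all genes. 2900072N19Rik (chromosome 2) had an FPKM of 2.44, 2.15 and 11.7, from 34, 30 and 149 reads, with a ratio of 5.43 to PS19 (3.65 to 8.32). Gm27004 (chromosome 5) had 14, 13 and 63 reads, a ratio of 5.29 (2.88 to 10.5), and shares 60% of its exon bases with 1700034G24Rik, which had no reads. Lsmem2 (chromosome 9), listed as a lincRNA although its symbol is that of a membrane protein, had 8, 2 and 26 reads and a ratio of 14.2 whose interval ran from 3.56 to 123. Ifrd2, the nearest protein-coding gene to Lsmem2 at 456 bases, had 181, 169 and 147 reads and was not called. Sema3b, which lies 599 bases from Lsmem2, went the other way with 343, 341 and 6 reads.

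6330403K07Rik was the abundant member called higher against PS19 in the PS19 Zbp1+/- library. It lies at chr11:71031941-71033513 (minus strand). Its FPKM was 110, 86.2 and 190, from 2834, 2226 and 4490 reads. PS19 was the lowest library and PS19 Zbp1+/- the highest. The ratio to PS19 was 2.2 (2.09 to 2.32), a difference of 1.13, and the ratio to WT was 1.73 (1.65 to 1.81), below the threshold. The call against PS19 was lost when libraries were rescaled to TPM or by total reads.

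Most of the remaining calls rested on few reads. Gm28271 had 15, 1 and 20 reads, and Gm31294 had 22, 7 and 20. These were the only members at least 1 log2 unit lower in PS19 than in both others, which held for 0.3% of all genes. Gm43690 had 6, 29 and 13 reads, and its ratio between PS19 and WT was 4.82 (1.97 to 14.2). Gm2464 had 27, 13 and 52 reads and Gm27030 had 22, 9 and 24. The call of Gm27030 against PS19 was lost when libraries were scaled by total reads. Between PS19 Zbp1+/- and WT, the reads were 55 against 22 in Gm8066, 34 against 9 in Gm12525 and 217 against 98 in Gm48623, with ratios of 2.73, 4.12 and 2.41. Gm2464 and Gm48623 were named after their values were seen. Gm12319 (19, 44 and 30 reads), Gm45619 (73, 34 and 45) and 1700048O20Rik (138, 56 and 55) were among the largest differences between PS19 and WT that were not called.

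Of the members, 15 hold 24 annotated small RNA genes on their own strand, and 12 of these members hold 15 microRNA genes. Snora16a and Mir1839 each have more than 1 entry among the 24, so the number of distinct small RNAs is smaller. The deposited table counts reads of long RNA, so host levels say nothing of how much mature microRNA was made. Small RNA genes lying wholly in host exons had 0 reads in the table. Of the 15 hosts, none was called between PS19 and WT or between PS19 Zbp1+/- and PS19, and 1 was called lower between PS19 Zbp1+/- and WT. With 15 genes, these counts are near the shares of all genes called. Between PS19 Zbp1+/- and WT, 12 of 15 lay below 0 with a median of -0.21, where 48% of all genes lay below 0 with a median of 0.02. Their medians in the other comparisons were -0.09 and -0.18.

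**Figure D4:**
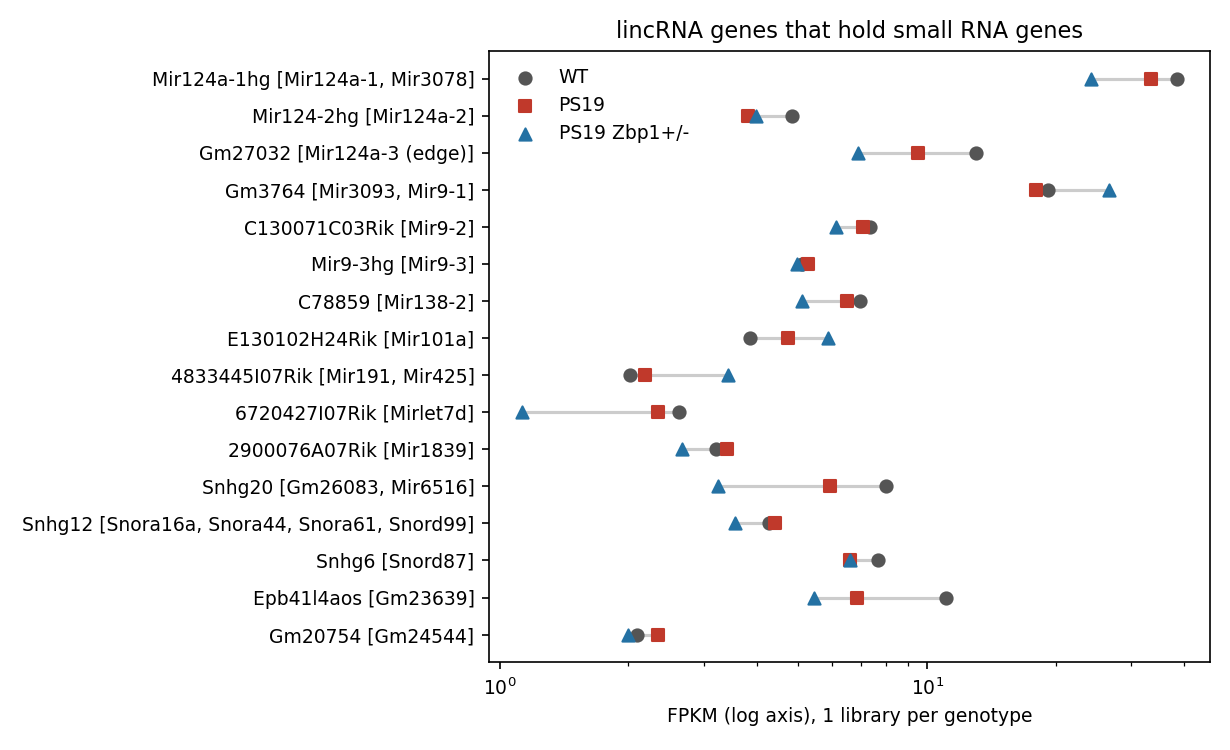
FPKM (log axis) of the lincRNA genes that hold small RNA genes (given in brackets), 1 point per library. Gm27032, which reaches only 3 bases into Mir124a-3, is shown with them. Mir124a-1hg and Snhg20 have PS19 Zbp1+/- lowest (24.2 and 3.23), and Gm3764 has it highest (26.7).

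The 3 loci of miR-124, an abundant neuronal microRNA, each lie in or at a member. Mir124a-1hg was the most abundant host, with an FPKM of 38.4, 33.4 and 24.2, from 3186, 2778 and 1839 reads. Its ratio between PS19 Zbp1+/- and PS19 was 0.723 (0.681 to 0.767), and to WT 0.629 (0.594 to 0.667). Mir124-2hg had 501, 397 and 379 reads, where WT was the highest and the PS19 libraries differed by a ratio of 1.04 (0.903 to 1.2). Gm27032, which overlaps 3 of the 68 bases of Mir124a-3, had 250, 184 and 122 reads and a ratio to WT of 0.532 (0.425 to 0.663) in PS19 Zbp1+/-. WT was the highest library at all 3 loci.

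The 3 hosts of miR-9, whose hairpins are printed above, did not share an order. Gm3764 had an FPKM of 19.2, 18 and 26.7 (1922, 1807 and 2456 reads), a ratio of 1.48 to PS19 (1.4 to 1.58). C130071C03Rik, which lies 54301 bases from Mef2c and is expressed in neural tissue, had 720, 692 and 550 reads. It was lowest in PS19 Zbp1+/-, at 0.868 of PS19 (0.775 to 0.972). Mir9-3hg had 383, 398 and 343 reads, with intervals that held 1 in every comparison. Since the 3 loci give the same mature arms, these host levels cannot be summed into a level of miR-9.

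Of the remaining microRNA hosts, only Snhg20, described with the next group, was called in any comparison. C78859, the host of miR-138, had 714, 666 and 480 reads, a ratio of 0.787 to PS19 in PS19 Zbp1+/- (0.699 to 0.887). 4833445I07Rik, the host of miR-191 and miR-425, had 57, 62 and 89 reads, and E130102H24Rik, the host of miR-101a, had 61, 75 and 85. 6720427I07Rik, the host of let-7d, had 104, 93 and 41 reads, a ratio of 0.482 to PS19 (0.325 to 0.703). 2900076A07Rik, which holds Mir1839, had 110, 117 and 84. The 13 genes of microRNA processing had no call in any comparison, which is near the background for a list of this size. Their medians were 0.21, 0.17 and 0.17, against -0.05, 0.07 and 0.02 over all genes.

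Hosts of small nucleolar RNAs usually carry those RNAs in introns and are otherwise mostly turned over. Snhg20 (chromosome 11), which holds Mir6516, had an FPKM of 8.03, 5.94 and 3.23, from 387, 287 and 143 reads. Its ratio of 0.403 to WT (0.33 to 0.489) was the only call among the hosts. Snhg12, with 4 annotated small nucleolar RNAs, had 177, 183 and 135 reads, Snhg6 had 152, 131 and 120, and Epb41l4aos had 82, 51 and 37. Of the 15 small RNA host genes of a list of known hosts that passed the mean level, members or not, 14 lay below 0 between PS19 Zbp1+/- and WT, 1 was called lower and none higher, with a median of -0.46. Of all genes, 48% lay below 0 there with a median of 0.02, and 2.4% were called lower, so the 1 call is near the background. The 8 protein genes of small nucleolar ribonucleoproteins had no call, which is also near the background for so few genes. Their medians were -0.33, 0.18 and -0.17, against -0.05, 0.07 and 0.02 over all genes.

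The further named members that follow were not called in any comparison. Of 6 listed neural lincRNAs that passed the mean level, members or not, none was called in any comparison, which is near the background for so few genes. Pantr1, a neural lincRNA beside Pou3f3, had 406, 296 and 332 reads, with PS19 at 0.728 of WT (0.624 to 0.847). Gm26917, which overlaps a copy of the ribosomal RNA precursor and so can collect ribosomal reads, had 440, 256 and 486, lowest in PS19. Its ratio of PS19 Zbp1+/- to PS19 was 2.07 (1.78 to 2.42), at a difference of 0.908, just under the threshold. Gm10076, a gene with a 99.5% identical copy in the ribosomal protein gene Rpl41, had 259, 197 and 331 reads, so its reads may belong to either gene. 3300002P13Rik had an FPKM of 68 in WT against 44.4 and 44.7 in the PS19 libraries, at 0.653 (0.598 to 0.713) and 0.656 (0.6 to 0.718) of WT. Tmem250-ps, a pseudogene by name, had 1028, 868 and 1185 reads.

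Of the 132 members, 109 were called in no comparison and 69 stayed within 1.5-fold in all 3. The matching shares of all genes were not counted, so these 2 counts describe the members only. Ratio intervals for counting error did not hold 1 in 54 members (40.9%) between PS19 and WT, 75 (56.8%) between PS19 Zbp1+/- and PS19, and 84 (63.6%) between PS19 Zbp1+/- and WT, against 60.4%, 70.2% and 66% of all genes. Intervals lay wholly beyond 2-fold in 4, 14 and 8 members (3.03%, 10.6% and 6.06%), against 1.83%, 5.71% and 2.86% of all genes. The width of an interval follows the reads behind it, and the median gene of all those tested had 636.5, 635 and 583 reads against 111.5, 103 and 81.5 for members. WT was the highest library in 56 members (42.4%), against 30.7% of all genes, PS19 in 29 (22%), against 26.4%, and PS19 Zbp1+/- in 47 (35.6%), against 42.9%. WT was the lowest in 24 (18.2%), against 25.6%, PS19 in 50 (37.9%), against 41%, and PS19 Zbp1+/- in 58 (43.9%), against 33.3%. No member had WT at least 1 log2 unit above or below both other libraries, which held for 0.238% and 0.362% of all genes.

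Position relative to other genes limits how far the reads can be assigned. In GENCODE M21, 59 members overlap another gene and 29 share exon bases with another gene that is not a small RNA gene, 23 of these on the opposite strand. Whether strand was used in counting is not given in the sources used here, so such pairs cannot be told apart. In addition, 6 members have a near-identical copy elsewhere. Restricting to members with no such copy and no shared exon bases left 6 lower calls between PS19 Zbp1+/- and PS19.

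**Figure D5:**
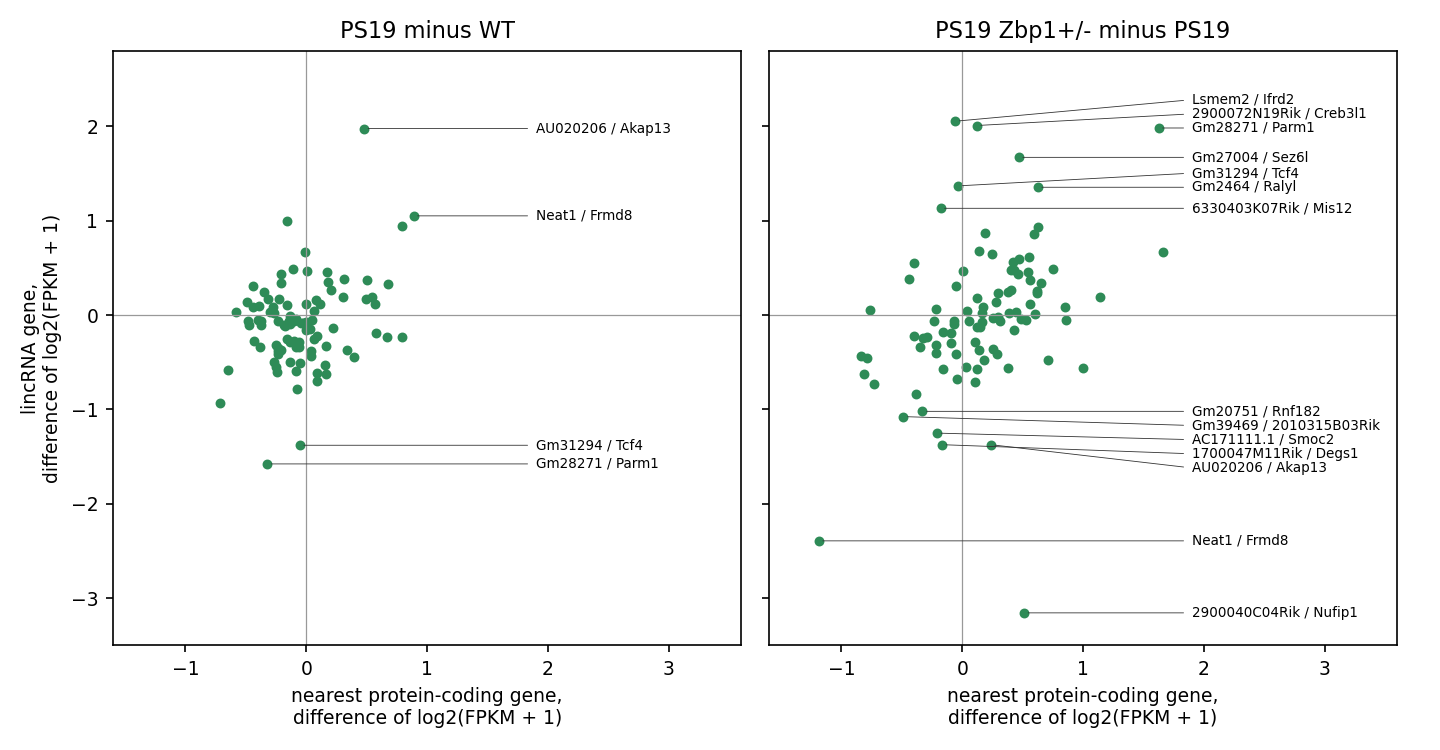
Difference of log2(FPKM + 1) of each lincRNA gene (vertical) against that of its nearest protein-coding gene (horizontal), for the 95 pairs whose neighbour had a mean FPKM of at least 2, in 2 comparisons. Called lincRNA genes are named with their neighbour; Neat1 and Frmd8 lie together in the upper right of the left plot and the lower left of the right plot.

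The nearest protein-coding gene lay at a median of 3249 bases from a member, over 131 members without Malat1. Its mean FPKM was at least 2 for 95 of them. Across these 95 pairs, which come from the same libraries, the differences of member and neighbour had a Pearson correlation of 0.32 between PS19 and WT, 0.36 between PS19 Zbp1+/- and PS19, and 0.23 between PS19 Zbp1+/- and WT, with Spearman's rho of 0.16, 0.46 and 0.37. The signs were equal in 59, 63 and 56 pairs. Member and neighbour were both called in the same direction in 0, 2 and 0 pairs. The 2 pairs were Neat1 with Frmd8 and Gm28271 with Parm1, which had 1169, 919 and 2760 reads, at a distance of 136431 bases. Members that lie close to each other are few: 8 pairs lie within 100 kb, Malat1 and Neat1 among them.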

How the data were processed

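The authors deposited 1 table of FPKM values for 54532 genes with 1 column per library, and all 3 columns were used. Per the submitters' processing notes, reads were handled with Trim Galore 0.6.5, STAR 2.5.3a and featureCounts 2.0.4, and the build named there is mm39. The table's gene positions match GENCODE M21 (GRCm38) for 98.3% of 54409 shared gene IDs and for 129 of the 132 members, so positions are given on GRCm38 as the table holds them. Per the labels' protocols, TRIzol RNA and an NEB Next Ultra kit were used. How multi-mapped reads and strand were treated is not given in the sources used here.

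Every FPKM times gene length was a whole multiple of 1 step per library (tolerance 0.05), which gave whole reads for 100% of values, and these reads gave the ratios and their exact (Clopper-Pearson) 95% intervals. Median member reads were 111.5, 103 and 81.5. Differences used a pseudocount of 1, and no count model could be run with 1 library per genotype. The named members are the 10 most abundant, the 5 largest increases and decreases per comparison, members with 1 library apart by 1 log2 unit, listed genes, and the 3 genes on either side of the level limit. Members and lists were chosen with earlier results of these data known. Near-identical copies were found with BLAST 2.17.0 (at least 90% identity over 50% of the transcript), and calculations used Python 3.11.15, pandas 2.3.3 and scipy 1.17.1 and were tested on simulated data. The alternatives were other pseudocounts, level limits, scalings, fold thresholds and subsets of members. 1 neighbouring gene, and the member and neighbour pair it belongs to, is not reported here.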

Additional observations from a re-analysis of the deposited data

How the results depend on the processing

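No paired analysis was possible because each genotype has 1 library, and no replicate could be left out. Values below are in the order PS19 against WT, PS19 Zbp1+/- against PS19, and PS19 Zbp1+/- against WT, and only those that moved are given. Rescaling to TPM gave 7 higher and 5 lower with a median of 0.018, then 19 lower with a median of -0.28, then 16 lower with a median of -0.31; 5 members then stood above and 4 below in PS19 alone. Scaling by total reads gave medians of -0.16 and -0.26 in the last 2 comparisons and 8 lower in the last. A pseudocount of 0.1 gave 7 higher and 6 lower, then 11 higher and 13 lower in the last, with 5 above and 4 below in PS19 alone. A pseudocount of 0.5 gave 6 lower and, in the last, 9 lower, with 4 below in PS19 alone. A mean FPKM of at least 1 gave 9 higher, then 13 higher and 16 lower, then 11 higher and 11 lower. A mean of at least 5 gave 1 higher and 1 lower, then 3 higher and 4 lower, then 2 higher. No limit on the mean gave 15 higher and 5 lower, then 25 and 30, then 19 and 21, with medians of 0 in the first and last. Members without an overlapping gene gave 2 higher and 1 lower, then 2 and 6, then 1 and 2. At least 50 reads gave 0 lower, then 4 higher, and members with no copy and no shared exon bases, an alternative chosen after seeing the data, gave 6 lower in the second comparison. On FPKM + 1, a 1.5-fold threshold gave 8 higher and 13 lower, then 22 and 17, then 19 and 25. A 4-fold threshold on the same scale gave 0 and 0, then 2 and 3, then 0 and 1. The changed limits, subsets and thresholds alter by construction which genes are counted; for the scalings and pseudocounts the cause was not tested. No direction of a called named member reversed. The calls against PS19 of 6330403K07Rik (TPM and total reads) and of Gm27030 (total reads) were lost among the 14 named members called there, and no other named call was lost under another pseudocount or scaling. With 1 library per genotype and a median of 81.5 to 111.5 reads per member, depth limits the low members most.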
